A study of Arabidopsis thaliana with 6 samples.

Results

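The genes described here encode 5 enzymes of amino acid breakdown in Arabidopsis thaliana: LKR/SDH (AT4G33150), proline dehydrogenase (ERD5, also called ProDH, AT3G30775), the branched-chain aminotransferase BCAT2 (BCAT-2, AT1G10070), isovaleryl-CoA dehydrogenase (IVD, AT3G45300) and MCCA (AT1G03090), a subunit of methylcrotonyl-CoA carboxylase. Each was represented by 1 probe set, so the set held 5 of the 22810 probe sets on the array. LKR/SDH (253373_at) and IVD (252570_at) were found by locus in the platform's annotation table, and MCCA by its probe set ID, 263118_at, which the table gives the same name. Probe sets 257315_at and 264525_at were taken as ProDH and BCAT2 by their IDs alone. The annotation table used here does not list these 2, so their gene names rest on the choice of the set. All 5 were chosen with the difference between saliva and control on these same arrays known. Their differences are therefore given as a description, and no p-value of theirs counts as a test.

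When sugar runs short, as in prolonged darkness, plant cells can use amino acids from protein turnover as fuel. Branched-chain amino acids, lysine and proline are among these fuels. The branched-chain amino acids and proline are oxidised largely in mitochondria. There, some of the dehydrogenases, IVD among them, pass electrons through the electron transfer flavoprotein to ubiquinone. Several genes of these routes are widely used as markers of low energy in Arabidopsis, in a response linked to the kinase SnRK1 and to bZIP transcription factors such as bZIP1 and bZIP53.

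Transcripts were measured on ATH1 arrays in wild-type Col-0 plants, 3 weeks old and grown on soil under a 16 h photoperiod, with 3 control arrays and 3 arrays of plants given saliva from the green peach aphid, Myzus persicae. The labels used here give neither the tissue, the way saliva was applied, the time of sampling nor what the controls received, and they name no darkness or starvation treatment. Nothing in them says whether the replicates came from separate plants, so the spread behind every p-value may be technical. If a sample held several cell types, more or fewer cells with a transcript could not be told apart from more or less of it per cell.

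All arrays had been scaled to a trimmed mean signal of 100.01. Saliva replicate 3 stood farthest out on the first principal component, at 22.7, against 0.369 and 5.31 for the other saliva arrays and -13.0 to -7.07 for the controls. The leaf gene RCA, rubisco activase, had a mean signal of 5544 on control and 5370 on saliva arrays, and the root genes PYK10, EXPA7 and EXPA18 had mean signals between 2.54 and 7.39 in both groups. These 4 were the named markers of 23 listed for leaf, root, flower, phloem and senescence. Differences below are saliva minus control on the scale log2(signal + 16), which understates the change of dim probe sets, and signals of different probe sets are not comparable with each other.

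Lysine breakdown begins with LKR/SDH, a single protein that joins lysine-ketoglutarate reductase to saccharopine dehydrogenase. Its signal was 40.5, 24.9 and 36.1 on the 3 control arrays and 39.0, 55.6 and 114 on the 3 saliva arrays. The groups overlapped: saliva replicate 1 lay below control replicate 1, while saliva replicate 3 was higher than every other array. On the log2 scale the mean was 5.63 ± 0.24 (SD, n = 3) in the controls and 6.32 ± 0.64 (SD, n = 3) with saliva, a difference of 0.70. The 3 saliva arrays differed from the control mean by 0.16, 0.54 and 1.40. Without saliva replicate 3 the difference was 0.35. The spread of LKR/SDH among the saliva arrays was greater than that of 99.6% of all probe sets tested. The locus is also known to give a shorter transcript for saccharopine dehydrogenase alone, and whether this probe set tells the 2 transcripts apart is not known here.

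Proline dehydrogenase takes proline to pyrroline-5-carboxylate in the mitochondrion and is induced by proline. The signal of 257315_at, taken as ProDH, was 66.1, 62.6 and 58.5 on the control arrays and 88.0, 125 and 100.5 on the saliva arrays. Every saliva array was above every control array, and the controls were close together. The log2 means were 6.29 ± 0.070 (SD, n = 3) and 6.90 ± 0.22 (SD, n = 3), a difference of 0.61, and the ratio of the mean signals was 1.68. Here saliva replicate 2, not saliva replicate 3, was the highest. Without saliva replicate 3 the difference was 0.63, and it ran from 0.49 to 0.71 with each array left out in turn.

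Branched-chain aminotransferases remove or add the amino group of leucine, isoleucine and valine. BCAT2 is a chloroplast member, and its transcript is known to be raised by several stresses. BCAT1, listed for branched-chain breakdown, has no probe set named here. The signal of 264525_at, taken as BCAT2, was 44.7, 54.5 and 59.7 on the control arrays and 37.6, 39.8 and 42.2 on the saliva arrays. All 3 saliva arrays were below all 3 control arrays, which is the opposite direction to the other 4 genes. The log2 means were 6.10 ± 0.16 (SD, n = 3) and 5.80 ± 0.059 (SD, n = 3), a difference of -0.30, and the ratio of the control over the saliva mean signal was 1.33. It was -0.33 without saliva replicate 3 and ran from -0.39 to -0.23 with each array left out in turn.

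In leucine breakdown, IVD oxidises isovaleryl-CoA and methylcrotonyl-CoA carboxylase then adds carbon dioxide to the product. The signal of IVD was 78.8, 77.9 and 87.8 on the control arrays and 102, 96.3 and 98.8 on the saliva arrays. The groups did not overlap, and the saliva arrays were close together: only 4.21% of all probe sets tested had a smaller spread among them. The log2 means were 6.61 ± 0.080 (SD, n = 3) and 6.84 ± 0.034 (SD, n = 3), a difference of 0.24, or a ratio of mean signals of 1.21. Leaving out 1 array at a time, the difference ran from 0.21 to 0.28, and it was 0.24 without saliva replicate 3.

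MCCA is the biotin-carrying subunit of methylcrotonyl-CoA carboxylase. Its signal was 103, 109 and 96.3 on the control arrays and 126, 108 and 120 on the saliva arrays. Saliva replicate 2 lay just below control replicate 2, so the groups overlapped. The log2 means were 6.89 ± 0.079 (SD, n = 3) and 7.07 ± 0.098 (SD, n = 3), a difference of 0.17. Without saliva replicate 3 it was 0.16.

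**Figure D1:**
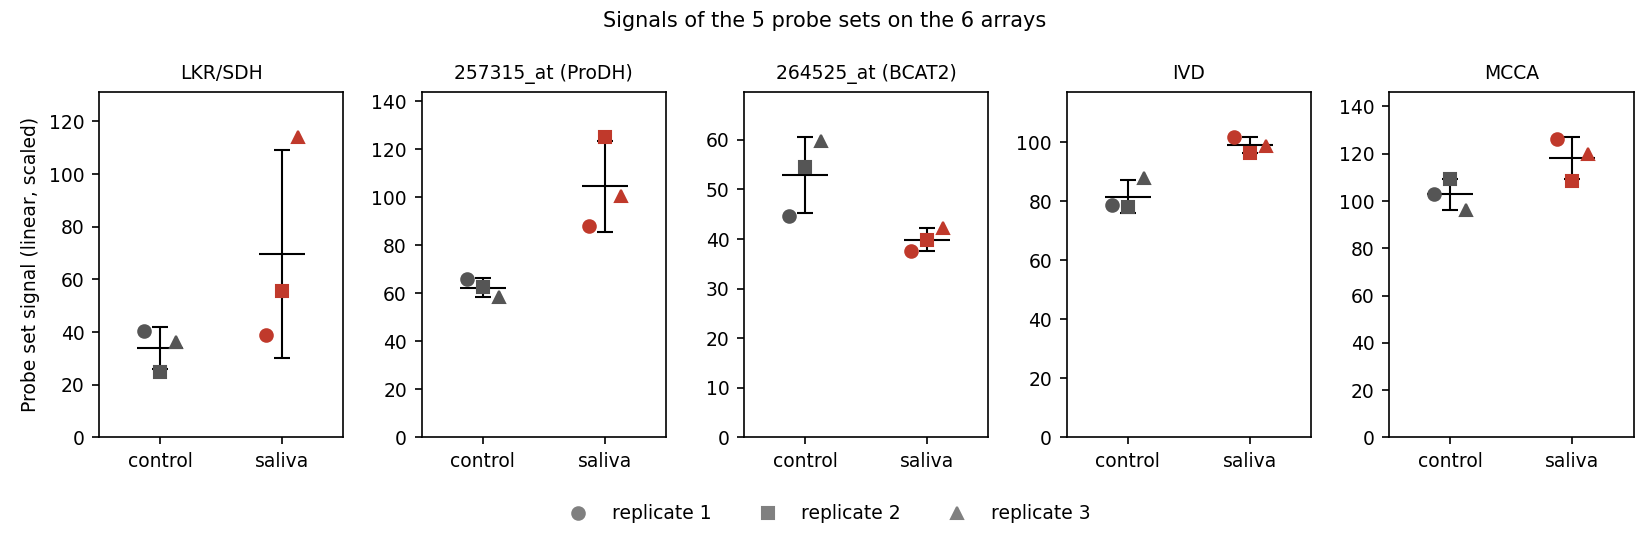
Probe set signal (linear scale, vertical axes from 0) of the 5 genes on the 3 control arrays (grey) and the 3 saliva arrays (red), with the symbol giving the replicate number, the long dash the mean and the bar the SD. LKR/SDH spreads from 39.0 to 114 over the saliva arrays, 257315_at and IVD lie above all controls, 264525_at lies below all controls, and MCCA overlaps.

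Of the 5, then, 4 had a higher mean with saliva and 1 a lower one, and the median difference was 0.24, beside 0.0057 over the 13647 probe sets tested. Seen as genes known to be raised under low energy, 4 had means on that side and 264525_at did not. The groups did not overlap for 3 of the 5, 2 higher and 1 lower, beside 15.5% of all probe sets tested (7.80% higher and 7.72% lower). By limma's adjusted p, 0 of the 5 were among the 8 probe sets that passed 0.05 over the whole table, which are 0.0586% of those tested. At an unadjusted p under 0.05 there were 4 of 5, 3 higher and 1 lower, beside 10.2% of all tested (5.39% higher and 4.82% lower). Because the set was chosen on this contrast, these counts, the limma calls among them, follow in part from the choice. They describe the set and carry no weight beyond that.

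**Figure D2:**
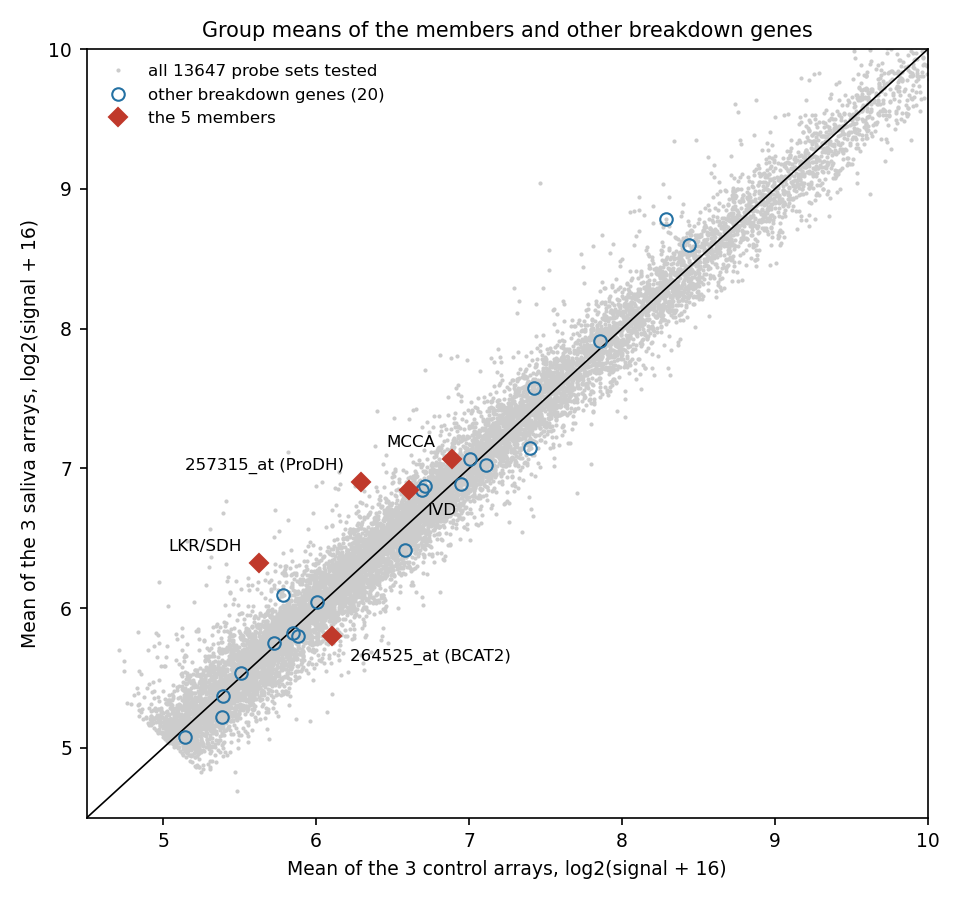
Mean of the 3 control arrays (horizontal) against mean of the 3 saliva arrays (vertical), both as log2(signal + 16), for the 13647 probe sets tested (grey dots), the 20 other breakdown genes (blue circles) and the 5 genes described (red diamonds), with a line of equality and with probe sets above 10 outside the axes. Of the 5, LKR/SDH and 257315_at lie farthest above the line, by 0.70 and 0.61, and 264525_at lies 0.30 below it.

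The next question was whether other genes of amino acid breakdown differed too. A list of 52 further breakdown and electron transfer genes was set by locus, with earlier results of these data known. Of these, 20 had a probe set named for that gene alone, and all 20 passed the filter on dim probe sets. The other 32, among them BCAT1, DIN3, DIN4 and P5CDH, could not be read here, so the 20 cover these routes only in part. By limma, 0 of the 20 passed an adjusted p of 0.05 in either direction (0.0586% of all probe sets did), and 1 of 20, or 5%, had an unadjusted p under 0.05 against 10.2% of all tested. The count of 1 was 2 without control replicate 1 (10.03% of all tested) and 3 without saliva replicate 2 (8.05%). With quantile normalization it was 2, against 10.1%. Their differences ran from -0.25 to 0.50 with 11 above 0 and 9 below, and their median was 0.028. On simulated arrays the same fit recovered only 48.8% of planted changes of 0.5 on this scale. Each simulation planted 200 changes, of 0.5 up to 2, and the larger ones ease the adjusted threshold. In the real table only 8 probe sets were called, so the share recovered here may be lower. Changes below 0.5 were not simulated. Changes as small as these could therefore go uncalled. The groups did not overlap in 5 of 20, or 25%, 3 higher and 2 lower, against 15.5%. With control replicate 3 left out it was 9 of 20 against 25.9% of all tested, and without saliva replicate 3 it was 5 of 20 against 28.3%.

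ALDH7B4 (AT1G54100), an aldehyde dehydrogenase of the family that acts after LKR/SDH in lysine breakdown in animals, was the gene with the unadjusted p under 0.05. Its signal was 299, 316 and 274 on the control arrays and 431, 393 and 453 on the saliva arrays. All saliva arrays were above all controls, and unlike LKR/SDH the arrays of each group were close together. The difference was 0.50 ± 0.11 (SE), with a limma adjusted p of 0.110 that ran from 0.0804 to 0.340 over the alternatives. The remaining named lysine genes were below 0. SARD4 (AT5G52810), which makes pipecolate from a lysine product in systemic immunity, differed by -0.25 ± 0.13 (SE, adjusted p = 0.521). D2HGDH, the D-2-hydroxyglutarate dehydrogenase, differed by -0.060 ± 0.15 and AT2G24580, a sarcosine oxidase family gene, by -0.078 ± 0.16 (SE). Leaving out control replicate 2, saliva replicate 1 or saliva replicate 3 put D2HGDH above 0 (at 0.056, 0.0091 and 0.015), and the first 2 of these also put AT2G24580 above 0 (at 0.0087 and 0.015).

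Along the leucine route, the named genes that follow IVD did not share a direction, and none passed the threshold. MCCB (AT4G34030), the partner subunit of MCCA, gave 169, 155 and 144 on the control arrays and 180, 174 and 170 on the saliva arrays, as signals. The groups were just apart. MCCB differed by 0.15 ± 0.11 (SE; 95% interval -0.082 to 0.38, limma adjusted p = 0.682), beside 0.17 for MCCA. AT2G26800, the hydroxymethylglutaryl-CoA lyase that ends the route, differed by 0.16 ± 0.11 (SE, adjusted p = 0.679), again with all saliva arrays above all controls. AT4G16800, an enoyl-CoA hydratase gene, lay on the other side, at -0.17 ± 0.11 (SE, adjusted p = 0.663), with its groups apart as well. AT5G09300, the E1 alpha subunit of the branched-chain keto acid dehydrogenase that stands between the aminotransferase and IVD, differed by -0.16 ± 0.14 (SE), and by -0.066 without control replicate 2.

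On the valine side ALDH6B2, the methylmalonate semialdehyde dehydrogenase, differed by 0.16 ± 0.11 (SE) and by 0.069 without saliva replicate 3, and the hydrolase and dehydrogenase genes AT4G31810 and AT4G20930 by -0.017 and 0.023. AT4G31810 was 0.059 without control replicate 3 and 0.10 without saliva replicate 2, and AT4G20930 was -0.046 without control replicate 2. The electron carriers that IVD feeds had estimates near 0. ETFBETA had lower signals on all saliva arrays than on all controls but differed by only -0.090 ± 0.10 (SE), ETFALPHA differed by 0.058 and ETFQO by 0.036. Leaving out control replicate 2 or 3 put ETFQO at -0.014 and -0.00029, and leaving out saliva replicate 1 or 2 put it at -0.043 and -0.010. None of these 6 passed the threshold in limma, with adjusted p from 0.678 to 0.985 (0.0586% of all probe sets tested passed). At an unadjusted p under 0.05 there were 0 of the 6, beside 10.2% of all tested, so few genes that 0 says little.

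For proline and arginine, AT5G38710, the second proline dehydrogenase gene, gave signals of 46.8, 40.0 and 31.4 on the control arrays and 46.5, 44.1 and 68.7 on the saliva arrays. As with LKR/SDH, saliva replicate 3 was the highest array and the groups overlapped. The difference was 0.31 ± 0.16 (SE, limma adjusted p = 0.530) and 0.16 without saliva replicate 3, whereas 257315_at moved from 0.61 to 0.63. DELTA-OAT, ornithine aminotransferase, which feeds arginine carbon into the same intermediate, differed by 0.16 ± 0.16 (SE), and by -0.0097 without saliva replicate 3. Urease (URE) differed by -0.026 ± 0.14 (SE), and by 0.016 without control replicate 1 and 0.084 without saliva replicate 3. Which saliva array was highest was nonetheless spread evenly over the 20 genes, with saliva replicates 1, 2 and 3 the highest in 7, 6 and 7 of them, beside 32.8%, 32.2% and 35.0% of all probe sets tested.

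MGL, methionine gamma-lyase, and the asparaginase genes ASPGA1 and ASPGB1 differed by 0.032, 0.061 and -0.062, each by less than its standard error. MGL was -0.078 without control replicate 2 and -0.045 without saliva replicate 1, and ASPGB1 was 0.097 without control replicate 3. Of the tyrosine breakdown genes listed, 0 of 6 were named here.

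**Figure D3:**
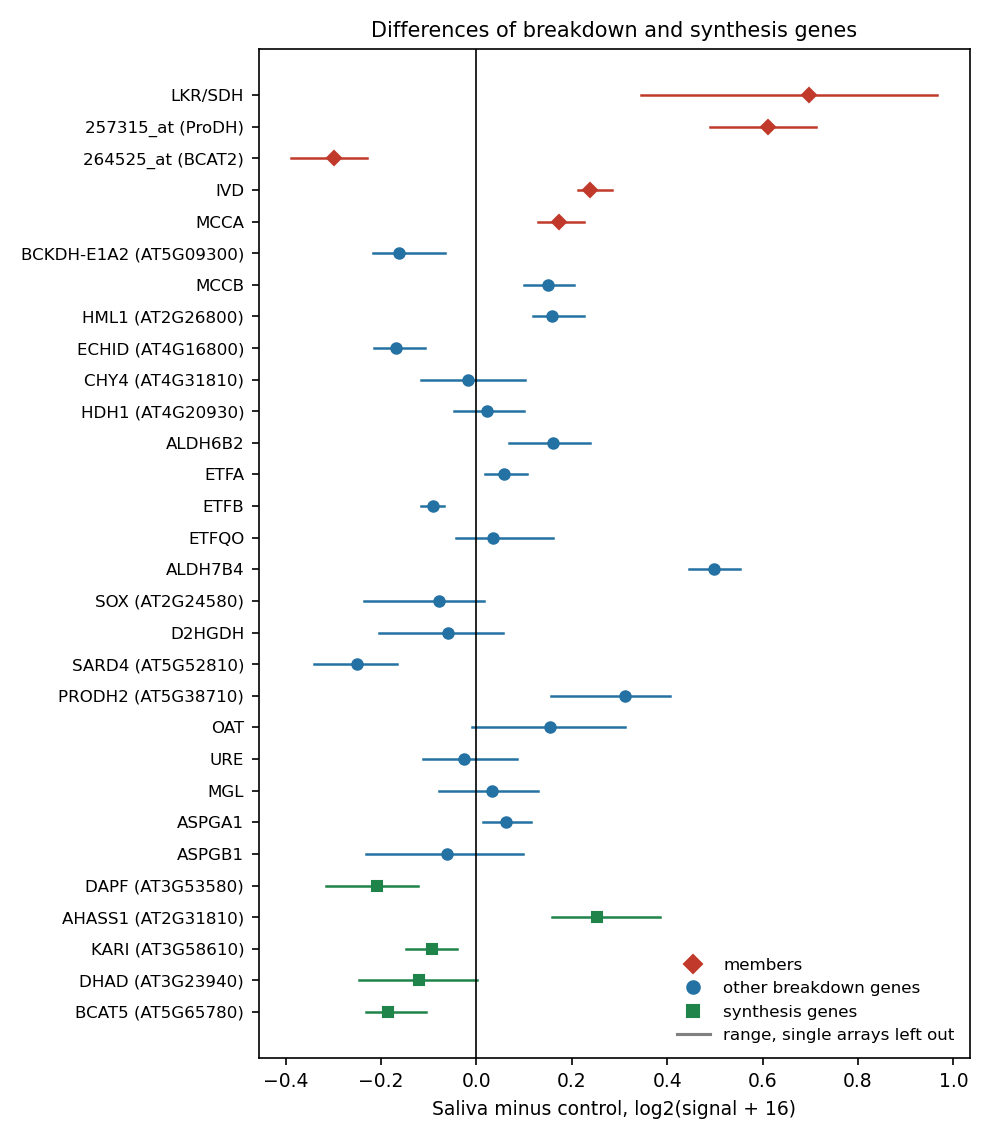
Difference, saliva minus control on the log2(signal + 16) scale, of the 5 genes described (red diamonds), 20 other breakdown and electron transfer genes (blue circles) and 5 synthesis genes (green squares). Lines span the values found when 1 array was left out. The widest among the 5 is that of LKR/SDH, from 0.35 to 0.97, and ALDH7B4 is the highest of the other 20.

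Synthesis of the same amino acids was looked at beside breakdown. Of 25 listed genes for lysine, branched-chain amino acid and proline synthesis, 5 were named and tested, 0 passed limma's adjusted threshold (0.0586% of all probe sets did) and 0 had an unadjusted p under 0.05 (10.2% of all did). Their median difference was -0.12, with 1 above 0 and 4 below. AT2G31810, a regulatory subunit of acetohydroxyacid synthase, differed by 0.25 ± 0.12 (SE, adjusted p = 0.513). ATBCAT-5, an aminotransferase of the same family as BCAT2, differed by -0.18 ± 0.11 (SE, adjusted p = 0.620) with all saliva arrays below all controls, so that this relative and 264525_at had the same sign. AT3G53580, diaminopimelate epimerase of lysine synthesis, differed by -0.21 ± 0.13 (SE). AT3G58610, the ketol-acid reductoisomerase of branched-chain amino acid synthesis, differed by -0.092 ± 0.099 (SE). AT3G23940, the dihydroxyacid dehydratase, differed by -0.12 ± 0.13 (SE), and by 0.0021 without control replicate 3.

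Among the 11 listed low-energy bZIP factors and SnRK1 kinases, BZIP53 and bZIP44 were named. BZIP53 (AT3G62420), which is known to activate the proline dehydrogenase gene as a heterodimer, gave signals of 474, 446 and 435 on the control arrays and 487, 476 and 512 on the saliva arrays. The groups did not overlap, and the difference was 0.12 ± 0.098 (SE, limma adjusted p = 0.732). bZIP44 differed by 0.16 ± 0.18 (SE, adjusted p = 0.816), and by 0.030 without control replicate 3 and 0.38 without control replicate 1. None of the 4 listed dark-inducible genes (SEN1, ASN1, DIN2 and DIN10) and none of the 6 senescence markers has a probe set named here, so they are not analysed here.

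Genes whose profile over the 6 arrays was most like the mean standardised profile of the 5 were ranked by Pearson r among tested probe sets with 1 gene, as a description. The 10 highest were AT1G62510 (r = 0.986), AT1G03520 (0.984), IRX15-L (0.982), AT3G01850 (0.981), cwINV6 (0.980), AT5G57655 (0.979), AT3G56140 (0.977), AT2G22420 (0.977), AT3G52610 (0.975) and AT1G09730 (0.974). All 10 had higher signals on every saliva array than on every control array, as the mean profile itself did. The 5 themselves had r with that mean of 0.83 for LKR/SDH, 0.90 for IVD, 0.82 for 257315_at, 0.70 for MCCA and -0.64 for 264525_at. Each of the 5 takes part in the mean, and all were chosen on this contrast, so these r are partly built in. Once each group's mean was subtracted, the values were 0.70, 0.44, -0.15, -0.27 and 0.81 in that order, so that within groups the 5 differed in sign. The genes most like that remainder were AT1G70810, AT3G21810, AT5G57345, AT1G05790 and AT5G23550, with r from 0.990 to 0.999 over 6 arrays, and with differences between groups from -0.31 to 0.22. Both rankings ran over the 7367 tested probe sets with 1 gene, less those described here. With so few arrays, r this high can come from the ranking alone.

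**Figure D4:**
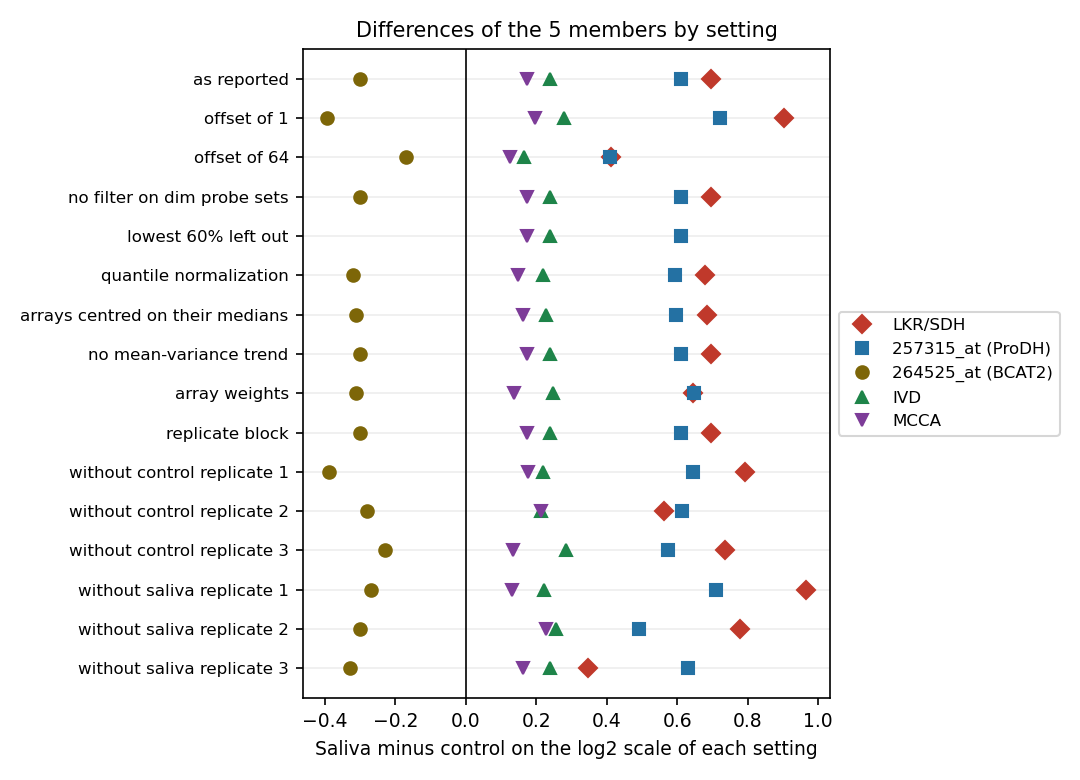
Difference of each of the 5 genes, saliva minus control (horizontal), under each setting of the processing (vertical), with LKR/SDH and 264525_at missing where the lowest 60% of probe sets were left out. All points keep their sign, which several of the settings could not have changed. LKR/SDH moves most, from 0.35 without saliva replicate 3 to 0.97 without saliva replicate 1.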

How the data were processed

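The authors deposited 1 linear intensity per probe set for each of 6 arrays. Per the submitters' processing notes, the tools were limma, GCOS and MAS5, with no role or version given. Their scaling to a common trimmed mean was kept. No detection calls were used. The deposited table held 0 columns from other samples. The 64 Affymetrix controls and the 40% of the other 22746 with the lowest mean of log2(signal + 16) were left out. The remaining 13647 were fitted in R 4.3.3 with limma 3.58.1 (lmFit, eBayes with trend, group as factor), with two-sided Benjamini-Hochberg adjusted p over all of them, after a test on simulated data. Names came from the platform's annotation, updated through RefSeq (TAIR10.1): 13513 probe sets have 1 gene and 8730 are unnamed here.

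The 5 genes and all lists were chosen with earlier results of these data known. Lists were written from memory by locus. Named are list genes with an unadjusted p under 0.05, otherwise up to 4 per list by smallest p, and the 10 and 5 genes most alike in profile; AT5G09300, AT4G31810, AT4G20930 and AT3G23940 were added, after their values were seen, to complete their routes. Alternatives were the offset, filter, scaling, trend, array weights, the replicate number as a block and single arrays left out. The number of arrays limits the precision.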

Additional observations from a re-analysis of the deposited data

How the results depend on the processing

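In 15 alternatives the 5 genes kept their sign wherever they passed the filter. Much of this was fixed beforehand. Changing the filter, the trend or the replicate block leaves these differences of means as they are. Where groups do not overlap, another offset or a left-out array cannot turn the sign. The kept signs therefore add no support for the differences. With an offset of 64, IVD was 0.16, 257315_at 0.41, 264525_at -0.17, LKR/SDH 0.41 and the median of the 5 was 0.16; with an offset of 1 the median was 0.28, and it lay between 0.21 and 0.28 when 1 array was left out. The offset itself compresses the scale. With the lowest 60% left out, LKR/SDH and 264525_at fell under the filter. The 8 probe sets called in all were 2 with an offset of 1 or 64, 1 without a filter, 2 with the lowest 60% left out, 1 with quantile normalization, 1 without a trend, 53 with array weights and 29 with the replicate block, and ran from 1 to 14 without single arrays; the cause was not tested. Deviations from the group means correlated at -0.059, 0.12 and 0.15 between arrays of the same number. Between arrays of different number the correlations ran from -0.17 to 0.089. The labels do not say whether arrays of the same number belong together, so the numbers were not taken as pairs. Whether they are pairs was not tested. Of the other breakdown genes, 0 of those tested passed in each alternative, 11 being tested with the lowest 60% left out and 20 otherwise. Without single arrays, signs turned within ranges of -0.11 to 0.084 for URE (0.042 with array weights), -0.046 to 0.10 for AT4G20930, -0.043 to 0.16 for ETFQO, -0.24 to 0.015 for AT2G24580, -0.20 to 0.056 for D2HGDH, -0.078 to 0.13 for MGL, -0.12 to 0.10 for AT4G31810, -0.23 to 0.097 for ASPGB1, -0.25 to 0.0021 for AT3G23940 and -0.0097 to 0.31 for DELTA-OAT. The low signals of LKR/SDH and 264525_at, with no detection calls, limit how well their levels are known. The same limit holds for dimmer genes such as ASPGB1, AT5G09300, AT4G31810 and MGL, with group mean signals from 17.9 to 30.6.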
